A study of Mus musculus with 292 samples.

Results

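Genes of the cerebral cortex were tested for a 12-h component of their daily course. The component was a cosine and a sine with a period of 12 h, added to a cosine and a sine with a period of 24 h. A gene with this component has either 2 peaks a day or a single peak that is sharper, flatter or more lopsided than a cosine. All cortex libraries except ZT0 replicate 1 and ZT9 replicate 9 were used, which left 76 of the 78 cortex libraries and of the 292 libraries of the study. The mice were wild-type C57BL/6J males aged 26 weeks, the tissue was the right hemisphere of the cortex, and each library came from a different mouse. Zeitgeber time (ZT) is by convention the hours since lights-on, so ZT0 to ZT12 is day and ZT12 to ZT24 is night. Mice were taken every 3 h over 36 h. ZT0 and ZT9 held 11 libraries each, ZT3, ZT6 and ZT12 held 12 each, and ZT15, ZT18 and ZT21 held 6 each. The 5 day groups were sampled in both cycles, whereas the 3 night groups came from the first cycle, so a night peak was seen in 1 night. Liver (76 libraries) and hypothalamus (75 libraries), taken from the same set of mice, served as comparisons.

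Daily rhythms are driven in most cells by the circadian clock, in which BMAL1 with CLOCK or NPAS2 turns on the Per and Cry genes, whose proteins then shut that step off. Rhythms with a shorter period have been described mainly in liver, where genes of protein folding in the endoplasmic reticulum (ER) are the best-known case. In cortex, sleep, waking, light and adrenal steroids also drive transcripts, and such drives can give steep edges at certain hours. A steep edge appears as a 12-h component even when the transcript peaks once a day.

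Total counts ran from 28.3 M to 40.5 M per library, with a median of 33.5 M. The markers of cortical excitatory neurons summed to 3317 to 5883 CPM in the 76 libraries, and to 1221 and 1295 CPM in the 2 left out. CPM are counts over the library total, in M, for marker sums, and over the effective library total, in M, for single genes. Markers of neighbouring tissue were present at varying levels: the 7 markers of striatal projection neurons summed to 139 to 1712 CPM, and their median was 511 CPM at ZT15 against 782 to 1198 CPM at the other hours. ZT6 replicate 10 stood apart from the rest. In it 2660 genes (13.6%) lay over 2-fold from the median of the ZT6 group, against 209 genes in the next library. Its mitochondrial share was 11.7% of counts, against 4.84% to 7.40% in the others, and its astrocyte markers summed to 3015 CPM, against 3906 to 5057 CPM. ZT6 replicate 12 held 85.7 CPM of 4 dentate granule cell markers, against at most 25.4 CPM elsewhere. In bulk tissue, fewer cells of a type and less RNA per cell cannot be told apart.

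A 12-h component was called for 137 of 19509 genes (0.702%), by edgeR's quasi-likelihood test with 2 degrees of freedom at a Benjamini-Hochberg adjusted p under 0.05. At an unadjusted p under 0.05 there were 2810 genes (14.4%). Without ZT6 replicate 10 the number was 311 of 19491 genes (1.6%), among them all 137. With ZT0 replicate 1 and ZT9 replicate 9 added back, it was 65. The count also moved with the hours sampled: it was 32, 40, 76 and 97 with ZT0, ZT3, ZT18 or ZT21 left out, 201 with ZT15 left out, and 682, 561 and 700 with ZT6, ZT9 or ZT12 left out. The components were small. The 12-h ratio, the fitted peak of the 12-h component over its trough, had a median of 1.2-fold over the 137 genes and ran from 1.08 to 2.00-fold. A lost call did not always go with a smaller component: of 170 calls of named genes lost over 22 alternatives, the log2 ratio was no lower in 38, lower by at most 1.5 times in 113 and lower by over 1.5 times in 19. On the log2 scale the median was 0.27, against 0.10 over all genes tested. A ratio of at least 1.2-fold was reached by 70 of the 137 (0.359% of the genes tested), and 1.5-fold by 16. For comparison, the 24-h terms in the same fit were called for 8821 genes (45.2%). Terms of 8 h and 6 h, which complete the shape over the 8 ZT groups, were called for 984 genes (5.04%), of which 35 were among the 137.

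How many of these genes had 2 peaks depended on the mark set for a peak. A fitted curve was counted as having 2 peaks when its smaller maximum stood at least 25% of the fitted range above the higher of its 2 minima. That held for 60 genes (43.8% of the 137 and 0.308% of the genes tested). Of the other 77, 67 had a second maximum below that mark and 10 had a single maximum. At a mark of 10% of the range 93 genes had 2 peaks, and at 50% 29 did. The means of the 8 ZT groups themselves had a single local maximum in 15 genes, 2 in 113, 3 in 8 and 4 in 1, whatever its height. The 12-h ratio was larger than the 24-h ratio in 57 genes, 34 genes had no called 24-h term, and 103 had both. Without ZT6 replicate 10, 145 of 311 genes had 2 fitted peaks and 84 had no called 24-h term.

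The 12-h components fell into a pair of windows. For 68 genes (49.6%) the component peaked between 2 and 6 h and again between 14 and 18 h, and for 55 genes (40.1%) it peaked between 9 and 12 h and again between 21 and 24 h. The remaining 14 peaked at other hours. Over all genes tested, called or not, the same windows held 40.0% and 31.9%, so the windows describe much of the table and not the called genes alone. In the first set, mean log2 CPM was highest at ZT15 in 39 genes and at ZT3 in 17, and the largest step between neighbouring ZT groups was an increase to ZT15 over ZT12 in 47 of the 68. In the second set, the mean was highest at ZT0 in 21 genes and at ZT12 in 14, and lowest at ZT3 in 27 and at ZT15 in 16. The largest step there was a decrease to ZT3 against ZT0 in 31 of 55 genes and to ZT15 against ZT12 in 18. In these sets the largest steps thus lay mostly at ZT0 to ZT3 and at ZT12 to ZT15, the first hours of day and of night. A component that peaks in the first window rises across those hours, and one that peaks in the second falls. The step counts therefore largely restate how the sets were made and are no separate support. The same counts were not made over all genes tested.

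**Figure D1:**
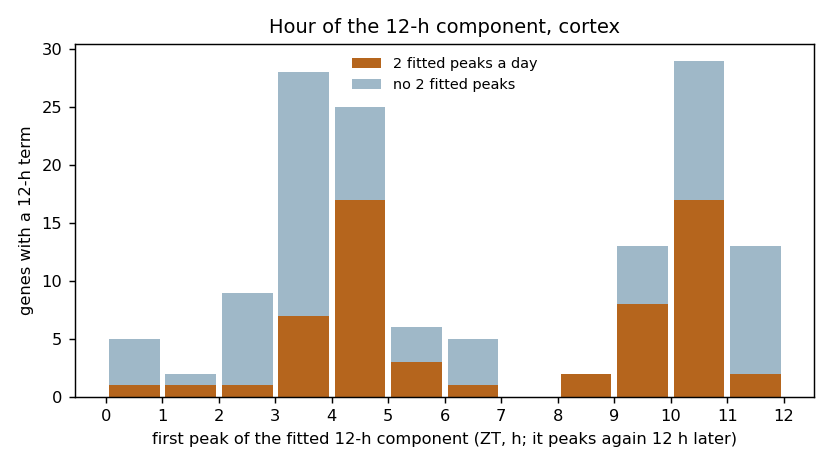
Number of genes with a 12-h term (y axis) by the hour of the first peak of the fitted 12-h component (x axis, 1-h bins), with genes of 2 fitted peaks a day in brown and the others in grey-blue. The bins of hours 3 and 4 hold 28 and 25 genes and the bin of hour 10 holds 29, while hour 7 holds 0.

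**Figure D2:**
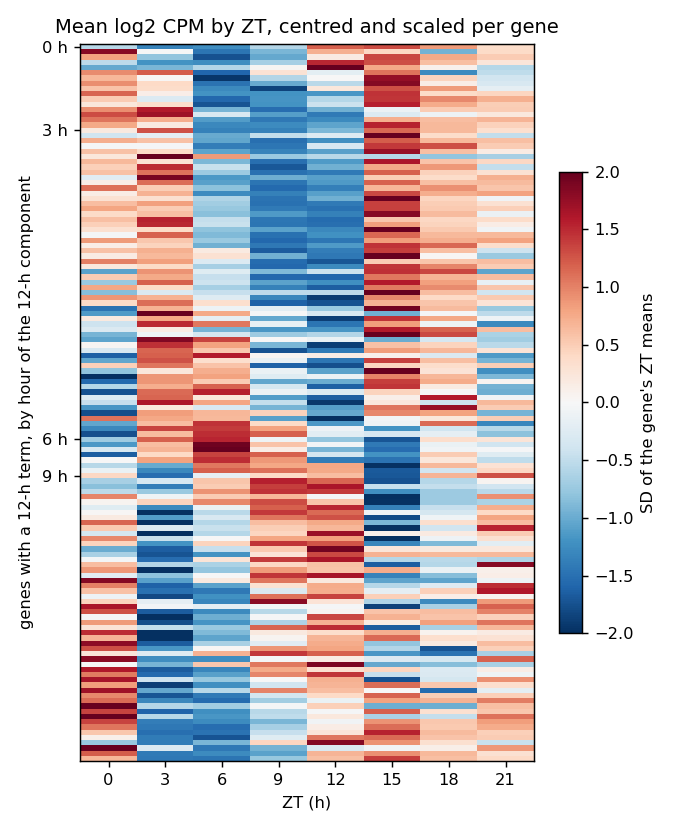
Mean log2 CPM of each of the 137 genes at the 8 ZT groups (x axis), centred and divided by the SD of the gene's 8 means, with genes from top to bottom by the hour of the 12-h component. The upper genes are red at ZT15 and often at ZT3, and the lower genes are blue at ZT3 or ZT15 and red at ZT0 or ZT12.

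ER chaperones and folding enzymes were the list with the most called members. Of 26 members tested, 9 were called (34.6%, against 0.702% of all genes): Hspa5, Sdf2l1, Pdia6, Pdia3, Calr, Manf, Dnajb11, Pdia4 and Herpud1. The median log2 12-h ratio over the 26 members was 0.13, against 0.10 over all genes, and 15 members were at an unadjusted p under 0.05. All but Herpud1 had their lowest median between ZT6 and ZT12 and higher medians from ZT15 through ZT0 and ZT3, with a steep edge between ZT12 and ZT15. The medians of Hspa5 then held a plateau, but not all genes did. Mean log2 CPM, centred per gene, went from 0.43 at ZT15 to 0.22 at ZT21 in Hspa5. It went from 0.72 to 0.07 in Sdf2l1, 0.50 to 0.15 in Pdia4, 0.41 to 0.11 in Manf and 0.19 to 0.04 in Dnajb11. In Pdia6, Pdia3 and Calr it went from 0.19 to 0.18, 0.15 to 0.09 and 0.11 to 0.14. None of the 9 had 2 fitted peaks. Without ZT6 replicate 10, 12 members were called, against 1.6% of all genes, with Creld2, Hyou1 and Xbp1 in addition. These calls rest on the ZT15 libraries: with that group left out 0 members were called by the same test, with ZT3 left out 4, and with each of the other ZT groups left out 7 to 12.

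Hspa5 (chromosome 2, 34771970 to 34777547, plus strand, GRCm38) encodes BiP, the main Hsp70 chaperone of the ER lumen, which binds unfolded chains and holds the stress sensors inactive. Its median was 289 CPM at ZT0 (246 to 352, n = 11), 275 at ZT3 (241 to 351, n = 12), 187 at ZT6 (151 to 223, n = 12), 166 at ZT9 (156 to 184, n = 11), 178 at ZT12 (166 to 192, n = 12), 309 at ZT15 (268 to 419, n = 6), 294 at ZT18 (243 to 312, n = 6) and 266 at ZT21 (230 to 378, n = 6). Every library at ZT15, ZT18, ZT21, ZT0 and ZT3 lay above every library at ZT6, ZT9 and ZT12. The 12-h ratio of Hspa5 was 1.37-fold (log2 0.45 ± 0.07, SE, n = 76, adjusted p = 4.29e-05), with peaks of the component at 3.22 h and 15.2 h. The 24-h ratio was larger, at 1.84-fold. With ZT15 left out the call was lost (adjusted p = 0.0873), and it held in each of the other alternatives tried. In the second cycle the day medians were 272 CPM at 24 h, 269 at 27 h, 203 at 30 h, 166 at 33 h and 179 at 36 h, close to the first-cycle values of 294, 283, 177, 168 and 177 CPM at 0, 3, 6, 9 and 12 h.

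Sdf2l1, a partner of BiP in the ER, had the largest 12-h ratio on the list at 1.62-fold (log2 0.70 ± 0.13, adjusted p = 0.00359). Its medians were 8.25, 7.60, 4.60, 4.44 and 5.04 CPM at ZT0, ZT3, ZT6, ZT9 and ZT12, and 10.7, 9.01 and 7.11 CPM at ZT15, ZT18 and ZT21. The ZT15 libraries, at 8.74 to 18.4 CPM, did not overlap with those of ZT9 (3.94 to 5.19 CPM) or ZT12 (3.80 to 5.93 CPM). Without ZT15 the adjusted p of Sdf2l1 was 0.436. Pdia6, Pdia3 and Pdia4, which form and rearrange disulfide bonds in folding proteins, had 12-h ratios of 1.18, 1.16 and 1.28-fold. Pdia6 was at 68.7 to 76.2 CPM at ZT9 and 69.8 to 79.2 CPM at ZT12, below all libraries at ZT15, which held 88.4 to 122 CPM (log2 0.24 ± 0.04, adjusted p = 0.00382). The call for Pdia6 was lost without ZT3 (log2 0.25, adjusted p = 0.0515) and without ZT15 (0.241). Calr encodes calreticulin, a calcium-binding lectin chaperone for glycoproteins, and had a ratio of 1.19-fold (log2 0.26 ± 0.05, adjusted p = 0.00382). Its highest median was at ZT0, with 344 CPM, and its lowest at ZT12, with 221 CPM. The values of Calr, Pdia4, Manf, Dnajb11 and Herpud1 are given because the list count includes them, although the rule for named genes does not. Manf, an ER-resident protein with neurotrophic activity, Dnajb11, a cochaperone of BiP, and Herpud1, a part of ER-associated degradation, had ratios of 1.28, 1.17 and 1.18-fold (adjusted p = 0.00967, 0.0111 and 0.0472). Herpud1 differed in shape: its median was 74.4 CPM at ZT15 and between 49.0 and 57.6 CPM at every other ZT.

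The other 17 list members did not pass the threshold, with log2 ratios between 0.01 and 0.40. Creld2, Derl3 and Xbp1, the last a transcription factor of the unfolded protein response, came closest, with log2 ratios of 0.26 ± 0.07, 0.40 ± 0.11 and 0.23 ± 0.06 and adjusted p of 0.0791, 0.0984 and 0.0987. Canx, the membrane-bound relative of calreticulin, was at 0.01 ± 0.03. Ddit3, which encodes the stress factor CHOP, was the called member among 17 genes of the integrated stress response (5.88%, against 0.702% of all genes). It had 1.2-fold (adjusted p = 0.0326), 2 fitted peaks at 16.6 h and 3.2 h, and a highest median of 20.8 CPM at ZT15. That call was lost in 7 of the 22 alternatives tried, and had an adjusted p of 0.3 with ZT15 left out. Of the exonic bases of Ddit3 10.9% are shared with another gene, so part of its count is uncertain.

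**Figure D3:**
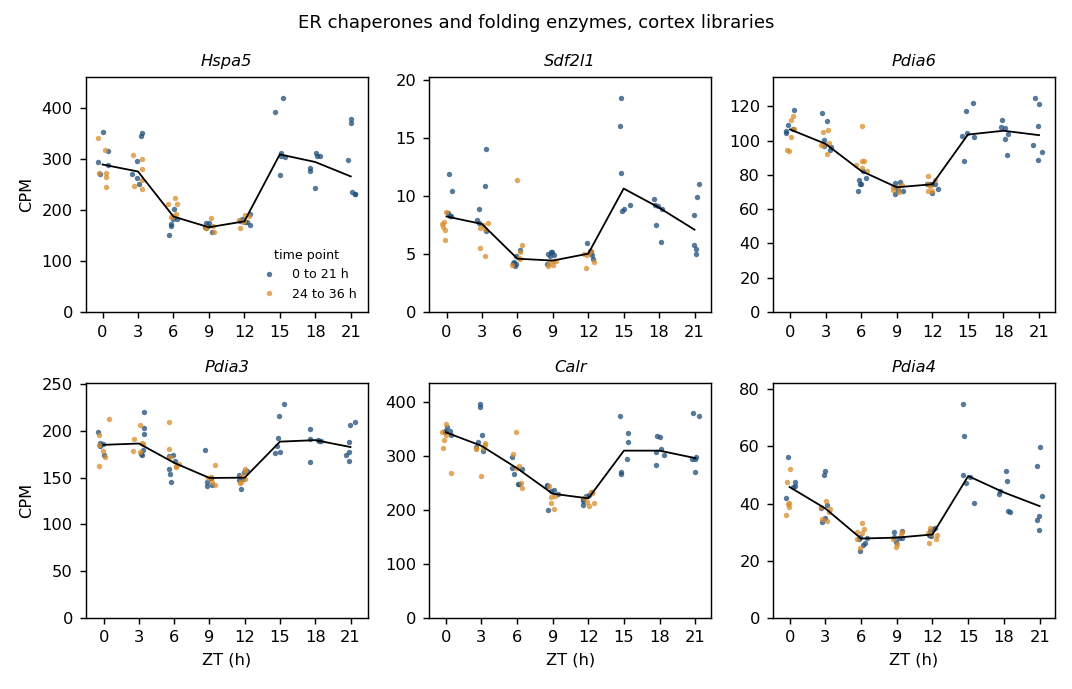
CPM (y axis, from 0) of 6 ER genes in each cortex library against ZT (x axis), with time points of 0 to 21 h in blue, 24 to 36 h in orange and the line through the median of each ZT group. Hspa5 lies between 151 and 223 CPM from ZT6 to ZT12 and between 230 and 419 CPM at all other hours.

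The ER stress element is the promoter sequence through which ATF6 and XBP1 with NF-Y turn on ER chaperones. The search used CCAAT followed by 9 bases of any kind and CCACG, on both strands, in the 250 bases before and 50 bases after each annotated start in RefSeq (GRCm38.p6). It was found in 20 of 16344 promoters of genes tested (0.122%), in 3 of 130 promoters of called genes (2.31%), and in 9 of 23 promoters of the ER list (39.1%). Among called members of the ER list it was found in 3 of 8 promoters (37.5%), near the share of the whole list. The 3 called genes with a match were Hspa5, Pdia6 and Calr, whose components peaked within 1 h of each other at 3.22, 3.71 and 3.98 h. The components of all 9 called list members peaked between 2.86 h (Pdia4) and 4.02 h (Pdia3), so these hours do not set the 3 apart. Canx, with the smallest 12-h ratio on the list, holds a match too. The promoters of Hspa5, Pdia6 and Calr are shown with the match in capitals (in Calr it lies on the opposite strand and reads as the reverse complement). In none of them did the match overlap an E-box. They lie at chr2:34771840-34772139 (plus strand), chr12:17266339-17266638 (plus strand) and chr8:84846882-84847181 (minus strand).
Hspa5: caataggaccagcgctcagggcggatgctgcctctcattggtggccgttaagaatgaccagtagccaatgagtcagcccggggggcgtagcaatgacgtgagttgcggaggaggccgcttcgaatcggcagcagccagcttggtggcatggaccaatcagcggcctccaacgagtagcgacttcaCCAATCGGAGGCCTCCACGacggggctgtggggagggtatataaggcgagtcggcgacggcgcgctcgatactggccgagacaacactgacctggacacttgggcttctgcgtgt
Pdia6: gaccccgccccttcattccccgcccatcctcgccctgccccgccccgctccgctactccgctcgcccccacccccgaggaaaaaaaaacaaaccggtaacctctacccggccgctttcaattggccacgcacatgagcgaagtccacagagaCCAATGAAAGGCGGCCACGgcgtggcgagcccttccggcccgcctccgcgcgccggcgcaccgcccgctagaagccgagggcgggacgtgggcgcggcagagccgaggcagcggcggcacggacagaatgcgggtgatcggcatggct
Calr: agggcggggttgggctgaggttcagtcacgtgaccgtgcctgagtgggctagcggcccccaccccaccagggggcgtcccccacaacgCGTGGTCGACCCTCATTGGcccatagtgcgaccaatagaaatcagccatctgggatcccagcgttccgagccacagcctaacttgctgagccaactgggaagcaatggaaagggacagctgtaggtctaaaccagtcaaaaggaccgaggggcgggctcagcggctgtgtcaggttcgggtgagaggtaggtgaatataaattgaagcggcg

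In liver the same list gave 21 of 26 members at an adjusted p under 0.05, against 17.2% of all liver genes tested, and larger components. Hspa5 had a 12-h ratio of 1.37-fold in cortex and 2.00-fold in liver, with peaks of the component at 3.22 h and 2.99 h. Manf had 1.28-fold in cortex and 2.35-fold in liver, at 3.33 h and 3.21 h. The difference between cortex and liver, tested as the interaction of tissue with the 12-h terms in edgeR, had an adjusted p of 0.0116 for Hspa5 and 1.19e-05 for Manf, and 14 of the 26 members differed (10.2% of all genes tested in both). Pdia6 had 1.18-fold in cortex and 1.19-fold in liver, and its difference was not called (adjusted p = 0.329). Herpud1 was called in cortex and not in liver, where its log2 ratio was 0.11 ± 0.10, but the difference was not called either (adjusted p = 0.259).

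**Figure D4:**
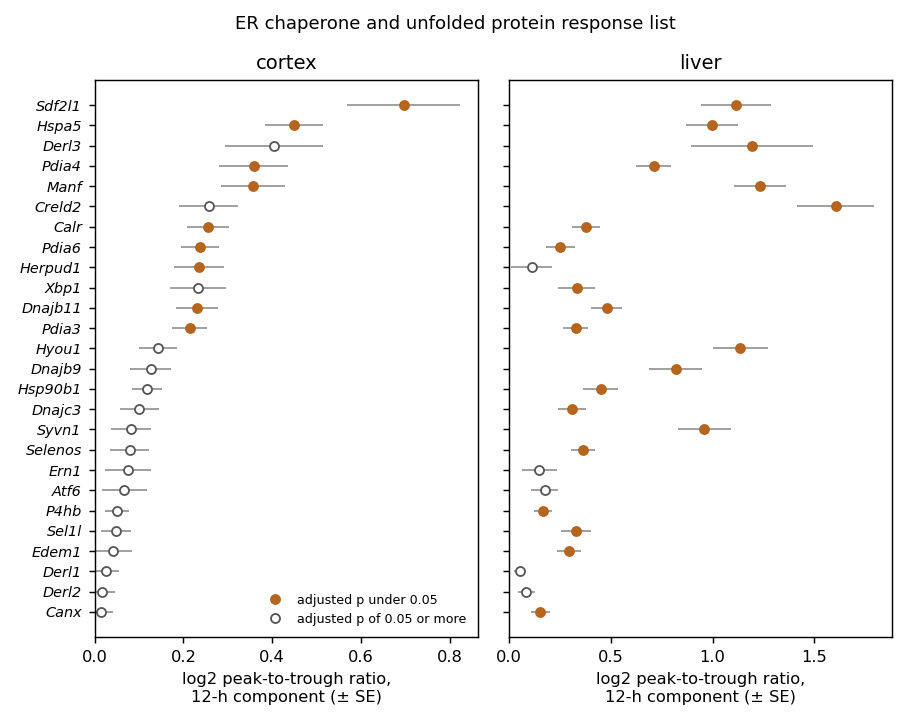
Log2 12-h ratio with its SE (x axis, a separate scale for each tissue) of the 26 ER list members in cortex (left) and liver (right), with filled points for an adjusted p under 0.05. Cortex has 9 filled points up to 0.70 for Sdf2l1, and liver has 21.

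Of 24 clock genes 4 were called, Cry1, Per1, Npas2 and Per2 (16.7%, against 0.702% of all genes). None of them had 2 fitted peaks. Cry1 (chromosome 10, 85131700 to 85185064, minus strand), the repressor that closes the clock's loop late, had the smallest p of all genes in the table (12-h ratio 1.26-fold, log2 0.33 ± 0.05, adjusted p = 4.29e-05). Its medians were 25.9 CPM at ZT0, 19.02 at ZT3, 15.2 at ZT6, 17.6 at ZT9, 22.8 at ZT12, 29.6 at ZT15, 26.2 at ZT18 and 25.6 at ZT21, so it stood on a shoulder from ZT18 to ZT0 after its peak. The ZT15 libraries, at 27.0 to 33.4 CPM, lay above all libraries at ZT3 to ZT12. The call held in each of the alternatives tried, and the ratio in liver was 1.33-fold with the component at 0.68 h, against 0.72 h in cortex.

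Per1 and Per2, repressors whose genes also respond to light and neuronal activity, were sharply lower at ZT3 than at ZT0. Per1 was at 88.9 to 140 CPM at ZT0 (median 108) and at 39.9 to 55.6 CPM at ZT3 (median 44.0), with no overlap, then reached medians of 63.3, 87.4, 113 and 138 CPM at ZT6, ZT9, ZT12 and ZT15. Its 12-h ratio was 1.54-fold (log2 0.62 ± 0.11, adjusted p = 0.00382), and the drop was seen in both cycles, at medians of 43.9 CPM at 3 h and 44.0 CPM at 27 h. The call for Per1 was lost with ZT0 left out (adjusted p = 0.232) and in the first cycle alone (0.0526). Per2 had medians of 69.8 CPM at ZT0 and 31.3 CPM at ZT3, and a ratio of 1.36-fold (adjusted p = 0.0362, and 0.939 with ZT0 left out). For both genes the 8-h and 6-h terms were called as well, with adjusted p of 1.51e-05 and 3.62e-05, so 2 harmonics do not describe their course fully. Npas2, the activator that can stand in for CLOCK, was highest at ZT3 with a median of 63.0 CPM and lowest at ZT12 with 44.9 CPM (1.14-fold, adjusted p = 0.0111, and 0.263 with ZT3 left out). Of the other 20 clock genes Ciart came closest, with 1.22-fold and an adjusted p of 0.0606, or 0.0192 without ZT6 replicate 10. Arntl, which encodes BMAL1, had 1.08-fold (adjusted p = 0.441) and Dbp, a clock-driven transcription factor, 1.17-fold (adjusted p = 0.195). The E-box CACGTG, the site of the clock activators, was found on both strands in 9.16% of all promoters searched and in 6.92% of those of called genes, Cry1 and Per1 among them.

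Among genes of neuronal activity, 3 of 20 effectors (15%) were called and 0 of 18 transcription factors, against 0.702% of all genes. Homer1, a scaffold of the postsynaptic density with an activity-induced short form, had a 12-h ratio of 1.37-fold (log2 0.45 ± 0.08, adjusted p = 0.00382). Its medians were 354, 312, 179, 157, 158, 308, 307 and 304 CPM from ZT0 to ZT21, the same plateau as Hspa5, with 264 to 405 CPM at ZT0 and 139 to 193 CPM at ZT12. The call was lost without ZT3 (adjusted p = 0.174) and without ZT15 (0.25). Plk2 and Sik1, activity-induced kinases, had ratios of 1.13 and 1.51-fold (adjusted p = 0.0288 and 0.0472), and were lowest at ZT3, at medians of 160 and 6.09 CPM. Without ZT0 their adjusted p were 0.699 and 0.727. Of the transcription factors 11 of 18 were at an unadjusted p under 0.05 in edgeR, against 14.4% of all genes, and the median log2 ratio was 0.34, against 0.10 over all genes. DESeq2's likelihood-ratio test called 0 of them and limma-voom 5. Without ZT6 replicate 10, edgeR called 1, Egr3, and 6 of the 20 effectors, against 1.6% of all genes.

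Among 16 genes that respond to glucocorticoids 3 were called (18.8%, against 0.702% of all genes), Sgk1, Errfi1 and Plin4. Sgk1, a kinase induced by adrenal steroids, had a narrow peak at ZT12. It was at 80.2 to 142 CPM at ZT12 (median 121), against 56.8 to 84.9 CPM at ZT9 (median 62.2), 50.6 to 125 CPM at ZT15 (median 72.0) and 45.6 to 52.7 CPM at ZT0 (median 49.1). ZT12 overlapped with ZT9 and with ZT15 and with no other group. The 12-h ratio of Sgk1 was 1.31-fold (log2 0.39 ± 0.07, adjusted p = 0.00382), and the call was lost with ZT12 left out (0.505) and in the first cycle alone (0.0698). Sgk1 was also 1 of 4 genes called in both cortex and hypothalamus, at 0.918 h and 0.924 h. Plin4, a lipid droplet coat protein, had a 12-h ratio of 1.55-fold on a 24-h ratio of 9.08-fold, with a single fitted peak, and its call was lost with ZT12 left out (0.496) and in 5 other alternatives. Errfi1, a feedback inhibitor of the EGF receptor, had 1.11-fold (adjusted p = 0.00772, and 0.539 with ZT0 left out). Hspa1b, the stress-inducible cytosolic Hsp70, was the called member of 20 heat shock genes (5%, against 0.702% of all genes). Hspa1b had 1.54-fold (adjusted p = 0.0188, and 0.329 with ZT15 left out). Its counts are uncertain because Hspa1a is a near-identical copy.

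**Figure D5:**
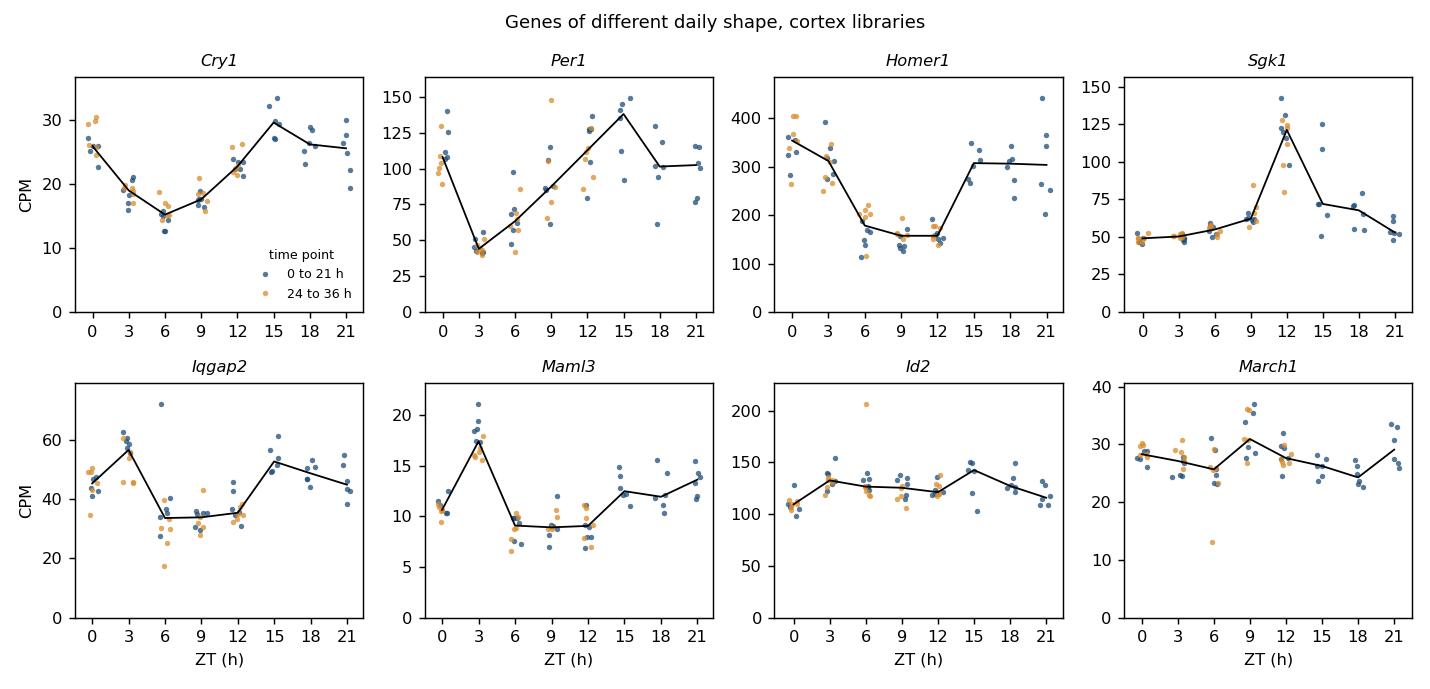
CPM (y axis, from 0) of 8 genes in each cortex library against ZT (x axis), coloured by cycle as above, with the line through the ZT medians. Cry1, Per1, Homer1 and Sgk1 (upper row) have a single main peak or plateau, and Iqgap2, Maml3, Id2 and March1 (lower row) have 2 fitted peaks.

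Of the 60 genes with 2 fitted peaks, 28 had the 12-h component in the window of 2 to 6 h and 27 in that of 9 to 12 h. Iqgap2 (chromosome 13, 95627177 to 95891922, minus strand), a cytoskeletal scaffold protein, was highest at ZT3 and ZT15, with medians of 56.6 CPM (45.5 to 62.6) and 52.7 CPM (49.0 to 61.3). Between them it was at medians of 33.6 CPM at ZT6, 33.9 at ZT9 and 35.4 at ZT12, and at 48.7, 44.9 and 45.3 CPM at ZT18, ZT21 and ZT0. The ZT15 libraries lay above all of ZT9 and ZT12. The ZT6 libraries ran from 17.4 CPM in replicate 10 to 72.0 CPM in replicate 12, which are the libraries described above as standing apart, and the other 10 from 25.3 to 40.4 CPM. The 12-h ratio was 1.40-fold (log2 0.48 ± 0.09, adjusted p = 0.00382) with all libraries, and log2 0.49 without ZT6 replicate 10 (adjusted p = 0.000463). With ZT3 left out the adjusted p was 0.329, and with ZT15 left out 0.0628. The ZT3 peak was seen in both cycles, at medians of 59.1 CPM at 3 h and 49.8 CPM at 27 h.

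Maml3, a coactivator of Notch signalling, had its highest values at ZT3, at 15.62 to 21.1 CPM (median 17.4), above every library of the other ZT groups. The margin was small against ZT18 and ZT21, which reached 15.58 and 15.53 CPM. The smaller fitted peak of Maml3 lay at 16.4 h, with a fitted trough after it at 21 h. Its medians at ZT15, ZT18 and ZT21 were 12.5, 11.9 and 13.6 CPM, within each other's range, so they did not fall toward that trough. The 8-h and 6-h terms were called as well (adjusted p = 3.66e-10), so 2 harmonics do not describe the course of Maml3 fully, and its second peak is one of the fit. With ZT3 left out, the 12-h ratio was log2 0.13 in place of 0.52, the adjusted p was 0.48, and the component moved to 6.52 h. Ecd, a cell cycle and splicing regulator, moved by a few percent, with medians of 42.6 CPM at ZT3 and 41.8 CPM at ZT15 against 38.9 CPM at ZT9 and 39.9 CPM at ZT21. With 1.08-fold (log2 0.11 ± 0.02, adjusted p = 0.00382, and 0.123 without ZT3) it was among the smallest components called.

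Id2, an inhibitor of helix-loop-helix transcription factors, had medians of 110 CPM at ZT0, 133 at ZT3, 127 at ZT6, 126 at ZT9, 121 at ZT12, 143 at ZT15, 127 at ZT18 and 116 at ZT21. Its fitted peaks lay at 5.1 h and 16.1 h (1.19-fold, adjusted p = 0.00537, and 0.244 without ZT0). The groups overlapped: ZT0 ran from 98.2 to 128 CPM and ZT15 from 103 to 151 CPM. ZT6 replicate 10 was at 206 CPM, and without it the log2 ratio was 0.22 in place of 0.25. Liver had Id2 at 1.35-fold with the component at 4.65 h, against 4.60 h in cortex. Chid1 had the reverse course, with medians of 60.2, 59.6 and 57.8 CPM at ZT9, ZT12 and ZT0 and its lowest at ZT15 and ZT3 (53.2 and 53.3 CPM, 1.11-fold, adjusted p = 0.00382). Its call was lost without ZT0 (0.0692) and without ZT3 (0.0889). Hecw2, a ubiquitin ligase, had medians of 73.6 CPM at ZT3, 111 at ZT6, 69.2 at ZT15 and 99.8 at ZT21 (1.33-fold, adjusted p = 0.00865, and 0.325 without ZT3).

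The 34 genes with no called 24-h term included Khdc4, March1, Swap70, Lbh and Ccn2. Khdc4, an RNA-binding protein, had medians of 93.6 CPM at ZT3 and 95.4 CPM at ZT15, against 82.4 to 84.4 CPM at ZT6 to ZT12 and 86.5 to 87.4 CPM at ZT21 and ZT0. Its 12-h ratio was 1.11-fold (log2 0.15 ± 0.03, adjusted p = 0.00766) and its 24-h ratio 1.05-fold (adjusted p = 0.117). Without ZT3 the adjusted p of its 12-h term was 0.122, and without ZT15 0.088. March1, a membrane-bound ubiquitin ligase, was highest at ZT9 and ZT21, at medians of 30.9 and 29.1 CPM, and lowest at ZT18, at 24.3 CPM. ZT6 replicate 10 was at 13.2 CPM, against 23.1 to 31.04 CPM in the other 11 libraries of its group. March1 had 1.22-fold (log2 0.28 ± 0.06, adjusted p = 0.00865) with all libraries and log2 0.26 without replicate 10 (adjusted p = 0.000741). Its call was lost without ZT9 (0.0698) and without ZT18 (0.0529). Swap70, an actin-binding signalling protein, Lbh, a transcription cofactor, and Ccn2, a matricellular protein, had 12-h ratios of 1.15, 1.1 and 1.33-fold, and all 3 calls were lost without ZT0, at adjusted p of 0.29, 0.111 and 0.305. Their log2 ratios without ZT0 were 0.16, 0.14 and 0.36, in place of 0.21, 0.13 and 0.41, so that of Lbh was not smaller. Of the exonic bases of Ccn2 23.2% are shared with another gene, so part of its count is uncertain.

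Cbln4 and Ntsr1 were among the 5 smallest p of the table. Cbln4 (chromosome 2, 172036233 to 172043466, minus strand), a secreted synaptic organiser, had a 12-h ratio of 1.60-fold (log2 0.68 ± 0.10, adjusted p = 4.29e-05). Its medians were 19.6 CPM at ZT0, 18.3 at ZT3, 14.3 at ZT6, 11.5 at ZT9, 11.8 at ZT12, 26.0 at ZT15, 23.2 at ZT18 and 20.3 at ZT21. All ZT15 libraries, at 18.7 to 36.0 CPM, lay above those of ZT9 and ZT12, which reached 15.5 CPM. In hypothalamus its ratio was 1.02-fold, and the difference between cortex and hypothalamus had an adjusted p of 0.000162. The call in cortex held in each of the alternatives tried. Ntsr1, a neurotensin receptor found in the corticothalamic neurons of layer 6, ran the other way, with medians of 7.37 and 7.57 CPM at ZT9 and ZT12 against 4.23 and 3.87 CPM at ZT15 and ZT18 (1.42-fold, adjusted p = 0.00236, and 0.105 without ZT0). Zfp143, a zinc finger transcription factor, had medians of 14.6 CPM at ZT3 and 15.0 CPM at ZT15, against 11.6 CPM at ZT9 (1.17-fold, adjusted p = 0.00236, and 0.187 without ZT3).

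The largest 12-h ratio among the named genes belonged to Col3a1, a fibrillar collagen, at 1.73-fold (log2 0.79 ± 0.15, adjusted p = 0.00865, and 0.113 without ZT0, where the log2 ratio was 0.75). Its medians were low, at 3.00 CPM at ZT0 and 1.11 CPM at ZT15. Markers of the meninges, where collagen genes are expressed, moved alongside. The 6 markers summed to a median of 47.3 CPM (33.5 to 58.0) at ZT15 and 52.4 CPM at ZT3, against 55.8 to 67.2 CPM at the other hours, and 5 of the 6 were at an unadjusted p under 0.05, with none called by edgeR, 1 each by DESeq2 and limma-voom, and 1, Col1a2, by edgeR without ZT6 replicate 10. With their mean as a covariate, a choice made after seeing these values, 109 genes were called, 80 of them among the 137, and 8 of the ER list. In that fit the log2 ratio of Col3a1 was 0.42 in place of 0.79 and remained called (adjusted p = 0.0405). Zic4, a zinc finger transcription factor, and Xkr7 had 2 fitted peaks near 22 h and 10 h, at 1.59 and 1.51-fold (adjusted p = 0.0365 and 0.0326). With the meninges covariate the log2 ratio of Zic4 was 0.41 in place of 0.67 and its call was lost (adjusted p = 0.217), as it was in 8 other alternatives of 22. The call for Xkr7 held with that covariate and was lost in 6 alternatives, with log2 0.42 in place of 0.59 and an adjusted p of 0.36 without ZT0. The same covariate ended the calls for Lama1 (log2 0.22 in place of 0.40, adjusted p = 0.191) and Sned1 (0.26 in place of 0.32, 0.0787). It also ended those for Lbh (0.11 in place of 0.13, 0.0884) and Khdc4 (0.11 in place of 0.15, 0.0728). For Cxadr (0.207 in place of 0.210, 0.0787), Ddit3 (0.273 in place of 0.268, 0.0507) and Sik1 (0.605 in place of 0.594, 0.068) the call was lost with hardly any change in the ratio. Cldn5, a tight junction protein of the blood-brain barrier, was the called member of 12 endothelial markers (8.33%, against 0.702% of all genes). Cldn5 had 1.33-fold (adjusted p = 0.00975, and 0.0982 without ZT12), while the 12 markers together summed to medians between 396 and 431 CPM at every ZT. Over all 15 marker lists 1 of 90 genes tested was called (1.11%, against 0.702% of all genes). At an unadjusted p under 0.05 there were 19, against 14.4% of all genes, and DESeq2 called 3 and limma-voom 4. Of 8 other lists, which hold the activity transcription factors above and genes of ER translocation and Golgi transport, cold response, splicing, the proteasome, the ribosome, oxidative phosphorylation and interferon, 0 of 174 members were called, against 0.702% of all genes. At that share few calls would fall among 174 genes, so 0 says little about these lists. Of the 174 members, 45 were at an unadjusted p under 0.05 in edgeR, against 14.4% of all genes. DESeq2 called 0 of the members and limma-voom 6. Without ZT6 replicate 10, edgeR called Egr3, Sec13 and Atp5b of them, against 1.6% of all genes.

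Liver had more 12-h components than cortex and hypothalamus fewer. The test called 137 genes in cortex, 2796 of 16258 genes (17.2%) in liver and 12 of 20366 genes (0.0589%) in hypothalamus. At a ratio of at least 1.2-fold these were 70, 1573 (9.68%) and 6 (0.0295%). Of the 137 cortex genes, 107 were tested in liver and 33 were called there too. That is 30.8% of the 107, and 1.26% of the 2615 genes called in liver and tested in cortex. Those 2615 were among 14896 genes tested in both. In liver the 12-h ratio was the larger in 31 of the 33. The components lay within 2 h of each other in 21 of the 33 genes, among them Hspa5, Manf, Cry1, Errfi1, Id2 and Sik1. In 10 genes they lay over 4 h apart, from 4.43 h for Snw1 to 5.81 h for Chid1. For a period of 12 h this is nearer to opposite phase than to the same phase. The difference was called in all 10, which is no separate support, since they were picked for called terms far apart in the same libraries. Chka, the choline kinase of phosphatidylcholine synthesis, had 1.1-fold at 10.4 h in cortex and 2.02-fold at 3.68 h in liver (adjusted p of the difference = 3.03e-10). Cxadr, a cell adhesion receptor, had 1.16-fold at 9.86 h in cortex and 1.37-fold at 4.25 h in liver (8.18e-09), and Rhou, a small GTPase, 1.15-fold at 10.6 h in cortex and 1.25-fold at 5.5 h in liver (3.89e-10). Snw1, a splicing and transcription cofactor, had 1.1-fold at 3.23 h in cortex and 1.16-fold at 10.8 h in liver (3.95e-06), but 44.2% of its exonic bases are shared with Slirp, so its counts are uncertain. The cortex call was lost for Chka in 12 of the 22 alternatives (adjusted p with all libraries 0.0474, up to 0.369), for Cxadr in 9 (0.0441, up to 0.429), for Rhou in 5 and for Snw1 in 3. The 12-h terms differed between cortex and liver in 46 of the 107 genes, against 10.2% of all 14896 genes tested in both. The 107 were picked for a called cortex term in the same libraries, so their larger share is no separate support either.

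With hypothalamus, 134 of the 137 genes could be compared and 4 were called in both tissues, Hspa1b, Hspa5, Pdia4 and Sgk1. Hspa5 had 1.37-fold in cortex and 1.16-fold in hypothalamus, Pdia4 1.28 and 1.22-fold, and Sgk1 1.31 and 1.55-fold. None of these 4 differences was called, with adjusted p of 0.487 or more. The difference was called for 2 of the 134 genes, Cbln4 and Gbgt1, against 0.0211% of all genes tested in both. The 134 were also picked for a called cortex term, so this share is no separate support. Cortex, liver and hypothalamus libraries of 1 mouse are not independent. With the mouse as a block, in 74 mice with both tissues, the 12-h terms of cortex and liver differed in 1321 genes, 1223 of them among the 1516 that differed without the block, and those of cortex and hypothalamus in 1 gene, Cbln4, in place of 4. In that fit the differences from liver of Sgk1, March1, Swap70 and Sned1 were no longer called, at adjusted p of 0.0524, 0.0958, 0.128 and 0.0786. Those of Homer1 (0.0188, from 0.0735) and Per2 (0.0181, from 0.0881) were called only with the block. That fit also used a common dispersion of counts for all genes, unlike the fit without the block, so the block was not the only change.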

How the data were processed

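The deposited counts are whole numbers per gene. STAR 2.7.3a, HTSeq 0.10.0, GRCm38 and mm10 appear in the submitters' processing notes. Which annotation release and which strand setting were used is not stated there. The authors' deposited FPKM values for cortex were used only for mean levels that are not printed. Members and lists were chosen with earlier results of these data known.

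Genes were filtered with filterByExpr, scaled by TMM and fitted with edgeR 4.0.16 in R 4.3.3 as cosine and sine of 24 h and 12 h. The 12-h terms were tested together by the quasi-likelihood test, on all genes, with Benjamini-Hochberg adjustment at 0.05. Tissue differences were tested as interactions. DESeq2 1.42.0 and limma 3.58.1 gave alternatives. On simulated cortex counts with 19381 genes, 41 of 50 genes with a 1.2-fold component and 8 of 50 with 1.1-fold were called.

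Named genes have a symbol that is not a Gm or Rik model and a mean log2 CPM of at least 1. They are the 12 called genes of largest ratio, the 10 of smallest p, the 8 of smallest p with 2 peaks, the 6 with no 24-h term, 4 called members of each list, the clock list, and the 4 of smallest p for the difference from each tissue. Marker genes of other cell types were summed as CPM. Striatum was not analysed here. Some genes that the rule names are not reported here.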

Additional observations from a re-analysis of the deposited data

Results flagged for a closer look

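Among 48 named and listed genes with a called 12-h term, the 144 groups of 6 libraries were searched for a library far from the others. These are the groups of ZT15, ZT18 and ZT21, and 2 such libraries were found (1.39%, where chance gives about 1 in 20 groups). The groups of 11 or 12 libraries at the other hours were not searched, and they include ZT6 replicate 10. In that library Sdf2l1 was at 11.4 CPM, against at most 5.78 CPM in the other 11 of its group. Khdc4 was at 88.5 CPM in ZT15 replicate 1, against 94.0 to 96.3 CPM in the other libraries of that group. Pdia3 was at 167 CPM in ZT18 replicate 4, against 189 to 202 CPM.

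The 12-h term differed between cortex and liver in 21 of these genes, by the interaction test in edgeR over all genes. Of all genes tested in both tissues 10.2% differed, but the genes here were picked for a called cortex term in the same libraries. The adjusted p was 3.03e-10 for Chka, 3.89e-10 for Rhou, 8.18e-09 for Cxadr, 3.95e-06 for Snw1, 6.62e-06 for Per1, 1.19e-05 for Manf and 8.70e-05 for Chid1. It was 0.000866 for Khdc4, 0.00125 for Iqgap2, 0.00252 for Pdia4, 0.00365 for Col3a1, 0.0116 for Hspa5, 0.0143 for Plk2, 0.0185 for Maml3 and 0.0199 for Zfp143. For Sdf2l1 and Swap70 it was 0.0267 each, for March1 0.0217, for Sgk1 0.0286, for Dnajb11 0.0463 and for Sned1 0.0491. Between cortex and hypothalamus it differed in 1 of them, Cbln4 (0.000162). These values come from the fit without the mouse as a block. With it, the differences from liver of Sgk1 (0.0524), March1 (0.0958), Swap70 (0.128) and Sned1 (0.0786) were no longer called. Those of Homer1 (0.0188) and Per2 (0.0181) were called only with it.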

How the results depend on the processing

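The count of 137 genes with a 12-h term, and of 70 at 1.2-fold or more, moved by over 1.5 times under these settings. DESeq2's likelihood-ratio test gave 310 and 140, limma-voom 386 and 161, the first cycle alone 260 and 165, and the L number of the library code as a factor 80 and 45. Striatal and oligodendrocyte markers as covariates gave 210 genes, and adding back ZT0 replicate 1 and ZT9 replicate 9 gave 65. Leaving out ZT0 gave 32 and 23, ZT3 40 and 31, ZT6 682 and 316, ZT9 561 and 342, ZT12 700 and 438, ZT15 138 at 1.2-fold, and ZT18 76. Chosen after seeing the data, leaving out ZT6 replicate 10 gave 311 and 123, and leaving out ZT6 replicates 10 and 12 gave 343 and 138. Genes with 2 peaks numbered 93 at a mark of 10% and 29 at 50%, in place of 60. The cause of these changes was not tested. Maml3 changed its peak hour without ZT3 (log2 0.13, adjusted p = 0.48). Over 62 named genes and 22 alternatives, 1179 results kept their side of the threshold, 170 lost it, 14 gained it and 1 reversed.

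With the replicate number as a block, 276 genes were called, 130 at 1.2-fold. Deviations of libraries with the same number had a mean correlation of 0.0724 (-0.535 to 0.665), against -0.00548 for libraries with other numbers. Of the 76 libraries, 19 correlated best with their own number. Whether libraries with the same number were handled together was not tested. With the mouse as a block the difference from hypothalamus was called in 1 gene.

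Night hours were sampled in 1 cycle with 6 libraries a group, so a night edge has no second cycle. Sampling every 3 h cannot place an edge more finely. In simulated counts 16% of 1.1-fold components were called. Those counts held no 24-h rhythm and no library that stood apart, and depth was not varied. How many small components were missed in the real libraries was therefore not tested.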
